A study of Mus musculus with 42 samples.

Results

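Of the 30244 ATAC-seq peaks listed for sorted hippocampal neurons of Ts65Dn;Brwd1+/- mice, 6351 shared no base with any peak listed for euploid or for Ts65Dn neurons. These rescue-only peaks made up 21.0% of their list (Wilson 95% interval 20.5 to 21.5%). They were chosen by peak position alone, with 1 shared bp being enough to leave a peak out. By the same rule, 5215 of 29195 Ts65Dn peaks (17.9%) were found only in Ts65Dn and 249 of 15521 euploid peaks (1.60%) only in euploid. The 3 lists were of unequal length, and the euploid list was the shortest. When each list was cut to its 15521 peaks of lowest q-value, 1886 peaks were found only in Ts65Dn;Brwd1+/-, 1637 only in Ts65Dn and 1887 only in euploid, and 541 of those 1886 (28.7%) were rescue-only with the full lists.

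In the study, Brwd1 copy number was restored in a mouse model of Down syndrome. Ts65Dn mice are trisomic for a segment that joins distal chromosome 16 to proximal chromosome 17, and Ts65Dn;Brwd1+/- mice carry the same extra segment with 1 copy of Brwd1 inactivated by the repro5 allele. All groups, euploid included, were of the mixed DBA/2J and B6EiC3Sn/J background of that cross. ATAC-seq came from NeuN+ nuclei of adult male hippocampus, with 3 libraries per genotype. SMARCA2/4 ChIP-seq came from hippocampi of males of 6 to 8 weeks, with tissue of 2 animals pooled in a replicate and 4 immunoprecipitated libraries per genotype. RNA-seq came from cultured neurons of the embryonic day 16 forebrain, 3 libraries per genotype, described as pooled from males and females. Each peak list held 1 genotype with its replicates merged, so peaks had no replicate error and no test between lists was made. Intervals on shares cover counting error only.

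ATAC-seq marks open chromatin, since a transposase inserts sequencing adapters where nucleosomes leave DNA exposed. In neurons, promoters of expressed genes are open in most states, whereas distal elements in introns and between genes are opened more selectively by transcription factors such as AP-1. The BAF complex, whose ATPase is SMARCA2 or SMARCA4, slides and evicts nucleosomes at both kinds of element. Brwd1 encodes a protein with bromodomains and WD repeats that binds modified histones, and its gene lies in the extra segment.

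Sequences are given for the strongest rescue-only peak at a promoter, in a gene body, between genes, with a SMARCA2/4 peak of Ts65Dn;Brwd1+/-, and in the triplicated segment, so that a reader can see how unlike each other they were in base composition. They were read from the forward strand of mm10, and capitals mark matches, on either strand, to the motifs searched. The first is chr1:4807488-4807787, the part of the Lypla1 promoter peak just before the untranslated region. It held no match and 64.0% G and C. The second is chr16:49004210-49004486, over a coding exon of C330027C09Rik (Cip2a in GENCODE), with an AP-1 match that runs into an E-box. The third is the centre of an intergenic peak at chr5:15914926-15915225. The fourth is chr17:84148899-84149169, between genes in the authors' annotation and without an exon in GENCODE, with 2 AP-1 matches. The fifth is chr16:86536564-86536809, intergenic, with 1 MEF2 match and 42.7% G and C.
Lypla1 promoter: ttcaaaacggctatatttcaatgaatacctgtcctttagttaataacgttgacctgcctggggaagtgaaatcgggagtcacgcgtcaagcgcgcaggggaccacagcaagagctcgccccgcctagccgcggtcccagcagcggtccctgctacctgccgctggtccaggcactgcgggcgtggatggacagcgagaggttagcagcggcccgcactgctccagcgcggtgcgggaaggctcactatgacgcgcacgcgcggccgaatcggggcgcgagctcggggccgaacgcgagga
C330027C09Rik gene body: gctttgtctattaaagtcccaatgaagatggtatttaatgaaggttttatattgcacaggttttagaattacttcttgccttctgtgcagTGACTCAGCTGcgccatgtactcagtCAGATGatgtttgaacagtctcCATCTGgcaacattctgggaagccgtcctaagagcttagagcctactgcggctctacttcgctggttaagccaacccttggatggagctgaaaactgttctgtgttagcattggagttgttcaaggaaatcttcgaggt
Intergenic, chromosome 5: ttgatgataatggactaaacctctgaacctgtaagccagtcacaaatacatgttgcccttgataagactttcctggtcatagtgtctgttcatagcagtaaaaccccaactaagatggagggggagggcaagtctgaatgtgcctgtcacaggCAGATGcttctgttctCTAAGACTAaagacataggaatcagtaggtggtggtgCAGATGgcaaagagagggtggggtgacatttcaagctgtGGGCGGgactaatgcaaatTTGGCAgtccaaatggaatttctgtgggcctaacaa
SMARCA2/4 peak, chromosome 17: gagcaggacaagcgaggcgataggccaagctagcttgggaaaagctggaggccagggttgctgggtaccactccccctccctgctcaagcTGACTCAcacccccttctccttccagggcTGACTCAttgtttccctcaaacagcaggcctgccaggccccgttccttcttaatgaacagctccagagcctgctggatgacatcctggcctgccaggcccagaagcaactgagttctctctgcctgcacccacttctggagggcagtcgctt
Triplicated segment, chromosome 16: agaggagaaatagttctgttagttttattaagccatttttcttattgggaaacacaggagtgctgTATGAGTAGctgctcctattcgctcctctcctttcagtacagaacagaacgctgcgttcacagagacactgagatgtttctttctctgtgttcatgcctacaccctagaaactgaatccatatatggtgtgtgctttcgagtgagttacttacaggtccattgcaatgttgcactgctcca

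The label of neuronal nuclei was checked on marker promoters, 8 genes per cell type. Neuronal markers had a proximal promoter peak for 6 genes in the euploid list, 8 in the Ts65Dn list and 7 in the Ts65Dn;Brwd1+/- list. Promoters of astrocyte markers had 0, 1 and 0 peaks, those of the oligodendrocyte lineage 0, 1 and 0, those of microglia 1, 0 and 0, and those of endothelium none in any list. Markers of hippocampal glutamatergic neurons had 3, 5 and 4, and interneuron markers, among them Gad1 and Gad2, had 0, 1 and 0. Away from promoters, the rescue-only set held gene body peaks at 5 of the 8 neuronal markers. It also held them at 3 of the 8 endothelial markers, Flt1 (fold 3.605), Cdh5 (3.33) and Pecam1 (2.90), which were the only ones with any Ts65Dn;Brwd1+/- peak. The astrocyte marker Aldh1l1 had 2 (the higher at 3.605), and Mbp, of oligodendrocytes, had 1 (2.67). Ts65Dn-only peaks, at promoters or in gene bodies, lay at 2 markers of endothelium, 2 of astrocytes, 1 of oligodendrocytes and 2 of neurons. The part of non-neuronal nuclei in the rescue-only set was not tested. Depth per ATAC-seq library is unknown from the lists, but fold enrichments that came in even steps let the background of the peak caller be read: 10.9 reads in Ts65Dn;Brwd1+/-, 8.30 in Ts65Dn and 8.56 in euploid. Over 23645 pairs of overlapping peaks, fold enrichment in Ts65Dn;Brwd1+/- was lower than in Ts65Dn, with a median log2 ratio of -0.23, and higher in 15.0% of pairs. Against euploid the median was 0.06 over 14499 pairs. How far depth enters the rescue-only set was not tested.

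Rescue-only peaks were weak and narrow. Fold enrichment, a linear ratio of reads over local background, had a median of 3.10 and ran from 1.89 to 7.07, with the middle of the distribution between 2.81 and 3.44. The Ts65Dn;Brwd1+/- peaks present in all 3 lists had a median of 4.40, and those shared with Ts65Dn but not euploid 3.30. The Ts65Dn-only peaks, measured against another background, had a median of 3.44. On the -log10 scale the median q-value was 7.93 for rescue-only peaks and 22.9 for peaks in all lists. Median width was 241 bp against 511 bp. Of the rescue-only peaks, 492 (7.75%) were 200 bp wide, the shortest length listed and the length to which reads had been extended. Ts65Dn-only peaks had a median width of 238 bp with 9.68% at 200 bp, and euploid-only peaks 221 bp with 14.9%. Where the number of reads could be read from the fold steps, in 1739 rescue-only peaks, the pileup had a median of 40 reads and a range of 26 to 68. Strength and width went into the presence of a peak in each list, so these values describe the set and were not tested.

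**Figure D1:**
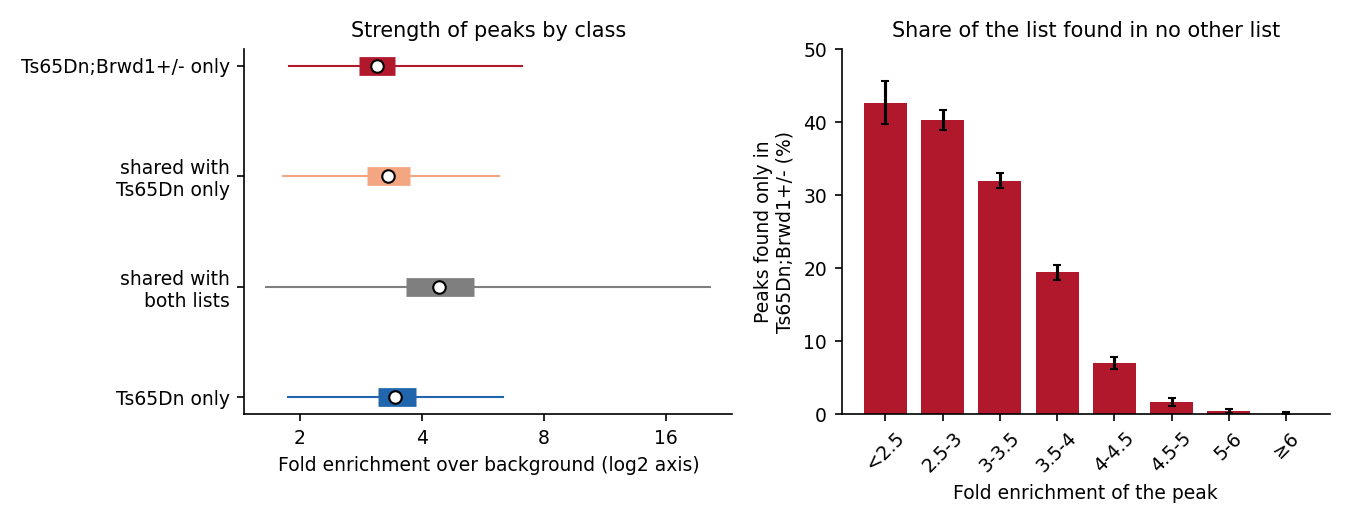
Left, fold enrichment of ATAC-seq peaks over background on a log2 axis by class of peak, where points are medians, thick bars span the quartiles and lines the whole range. Right, percent of Ts65Dn;Brwd1+/- peaks that were rescue-only by fold enrichment, with Wilson 95% intervals, which fell from 42.7% under a fold of 2.5 to 0.0483% at 6 or above.

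Being found only in this genotype went with low fold enrichment. Under a fold of 2.5, 42.7% of Ts65Dn;Brwd1+/- peaks were rescue-only, and from 3 to 3.5, 32.0%. From 4 to 4.5 the share was 6.95%, and from 5 to 6 it was 0.383%, or 11 of 2870 peaks. Only 1 of the 2071 peaks with a fold of 6 or more was rescue-only. Of all rescue-only peaks, 1089 (17.1%) reached the median fold of their own list and 144 (2.27%) the median of the Ts65Dn list, while 53.4% lay under the 10th percentile of the Ts65Dn list. Shares set against the Ts65Dn list include the offset of -0.23 between the folds of shared peaks.

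Most rescue-only peaks lay away from the peaks of the other lists. The median gap to the nearest peak of another genotype was 16775 bp, 632 (9.95%) lay within 1000 bp of one and 126 (1.98%) within 100 bp. Just inside the rule lay the peaks at Hp1bp3, 1 bp from a peak of another list, and at Il16 and Phb2, each 3 bp away. Just outside lay an intergenic peak on chromosome 1 that shared 2 bp, and peaks at Qrfpr and Atf6b that shared 4 bp each. In all, 9 rescue-only peaks had a gap of at most 10 bp, and 6 peaks were left out for at most 10 shared bp. Rescue-only peaks were spread out, with 614 (9.67%) within 10 kb of another rescue-only peak.

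The strongest rescue-only peak covered the promoter of Lypla1, which encodes a thioesterase that removes palmitate from proteins (chr1:4807479-4808218). Its fold enrichment was 7.07 (q = 3.89e-41), it was 740 bp wide, and the nearest Ts65Dn and euploid peaks were 49166 and 49192 bp away. It lay 18 bp from the annotated start, over a coding exon annotated for Lypla1 and for the overlapping gene Gm37988, and overlapped a euploid SMARCA2/4 peak. No other rescue-only peak reached a fold of 6.

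The next were at Rc3h2, a RING-type ubiquitin ligase that binds RNA (chr2:37382878-37383244, fold 5.78), and C330027C09Rik (fold 5.70), the second sequence above. Both overlapped a coding exon. Ocrl, an inositol phosphatase gene on chromosome X, had a peak in an intron with a fold of 5.28 (chrX:47962659-47963015). Camk1d, a calcium/calmodulin-dependent kinase gene, and E130114P18Rik had intronic peaks of 5.11, and the promoter of the long noncoding RNA Gm36017 also had 5.11. The remaining peaks among the strongest 10 were intergenic: chr5:15914910-15915241 with 5.20, chr13:54418757-54419293 with 5.18 and chr5:119167870-119168130 with 5.09. Apart from Lypla1, only the one on chromosome 13 overlapped a SMARCA2/4 peak, in the euploid list.

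The 3 widest rescue-only peaks were not among the 10 strongest, although the Lypla1 peak, with its 740 bp, was nearly as wide. The widest rescue-only peak, 918 bp, lay at the promoter of Ambra1, an autophagy regulator, with a fold of 2.93. The second, 808 bp, lay in an intron of Csmd1, which encodes a membrane protein with complement control repeats, with a fold of 3.84. The third, 767 bp, lay in 6330411D24Rik with a fold of 2.91.

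By position, rescue-only peaks lay mainly in gene bodies, with 3021 of 6351 there (47.6%), and between genes, with 1781 (28.0%). Proximal promoters held 500 (7.87%, interval 7.24 to 8.56%), and 13.3% with lists of equal length. Another 516 (8.13%) lay in the promoter class out to 1 kb, and 533 (8.39%) in the class out to 3 kb. Peaks present in all 3 lists had 57.6% at proximal promoters, 16.5% in gene bodies and 14.6% between genes. Ts65Dn-only peaks lay between them at promoters, with 14.02%, and had 36.4% in gene bodies and 30.6% between genes.

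The difference in position was also seen among peaks of like strength. With fold enrichment from 3 to 3.5, 5.99% of rescue-only peaks were at proximal promoters, against 17.2% of peaks shared with Ts65Dn and 38.8% of those in all lists. Read the other way, 4.74% of Ts65Dn;Brwd1+/- peaks at proximal promoters were rescue-only, against 33.7% in gene bodies and 27.5% between genes. The corresponding shares of Ts65Dn-only peaks in the Ts65Dn list were 6.77, 24.2 and 25.2%. In gene bodies, 11.7% of rescue-only peaks overlapped an exon and 7.12% a coding exon, and the shares for peaks in all lists were 12.2 and 6.84%, with overlapping intervals.

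**Figure D2:**
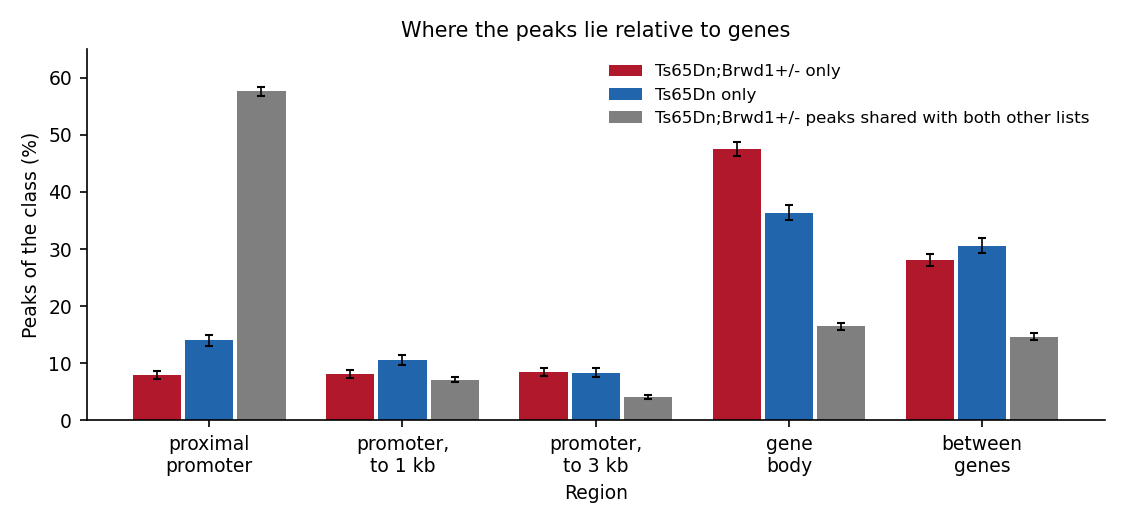
Percent of ATAC-seq peaks in each annotated region, by class of peak, with Wilson 95% intervals. Rescue-only peaks had 7.87% at proximal promoters and 47.6% in gene bodies, and peaks in all 3 lists had 57.6 and 16.5%.

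At proximal promoters, the 500 rescue-only peaks were as near to the start site as those in all lists, with a median distance of 56 bp against 52 bp, and 87.2% against 93.5% belonged to protein-coding genes. After Lypla1 and Gm36017, the strongest were at Gm11228, a long noncoding RNA (fold 4.78), and Mc5r, a melanocortin receptor (4.69). Then came 4930550C14Rik (4.61), Sgms1, a sphingomyelin synthase (4.44), and Ifi27, an interferon-induced gene (4.27). The promoter peaks fell in 491 genes, of which 148 (30.1%) had another proximal promoter peak in the euploid or Ts65Dn list, so for those genes the rescue-only peak was an additional one.

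Counting proximal promoters and gene bodies together, 2485 of the 11894 genes with a Ts65Dn;Brwd1+/- peak (20.9%) had a rescue-only one. Of these, 1935 had 1 such peak and 54 had 5 or more. Ts65Dn-only peaks marked 2146 genes by the same count. The overlap was 630 genes, or 25.4% of the genes with a rescue-only peak and 29.4% of those with a Ts65Dn-only peak. Over all genes of the Ts65Dn list, 18.01% had a Ts65Dn-only peak, and both kinds were more frequent in longer genes, as given below. Of 2077 genes with a rescue-only peak in the body, 906 (43.6%) had a proximal promoter peak in all 3 lists, against 40.6% of the genes with a shared peak in the body.

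The genes with the most rescue-only peaks were long, from 422 to 2197 kb in the 12 with at least 10. Lsamp, an adhesion molecule of limbic neurons, had 14 of its 22 Ts65Dn;Brwd1+/- peaks in the set, with folds from 2.67 to 4.19, and its Ts65Dn list held 10 peaks. Tenm2, a teneurin that binds latrophilins across the synapse, had 14 of 25, and Dab1, the adaptor of reelin signalling, 12 of 32. Csmd1 and Cacna2d3, a calcium channel subunit, had 11 each, of 28 and 20.

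Opcml, a relative of Lsamp, had 10 of 18, and Csmd2 10 of 17. Sox5, a transcription factor of neuronal fate, had 10 of 13, while the Ts65Dn list held 4 peaks and the euploid list 2. Dlgap2, a scaffold of the postsynaptic density, had 10 of 21, and Ptprn2, a protein of dense-core vesicles, 10 of 19. Rbfox1 and Rbfox3 tied with these at 10 but had weaker peaks. Rbfox3 encodes NeuN, the antigen of the nuclear sort.

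Gene length went with having a rescue-only peak, as it did for Ts65Dn-only peaks. Among genes with a Ts65Dn;Brwd1+/- peak, the share with a rescue-only one was 8.59% under 20 kb, 19.50% from 20 to 100 kb, 45.5% from 100 to 300 kb and 68.2% above. The shares with a Ts65Dn-only peak among genes of the Ts65Dn list were 9.87, 15.3, 37.7 and 56.5%. Median length was 100.1 kb for genes with a rescue-only peak in the body, 105.8 kb for those with a Ts65Dn-only peak and 84.3 kb for those with a shared one. The counts for gene lists that follow should be read beside these lengths. They are out of all genes of a list, and the number of its genes with any Ts65Dn;Brwd1+/- peak follows, since only over those can a count be set beside 20.9%. No difference between lists was tested.

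Among the genes of axon guidance, 14 of 24 had a rescue-only peak, with 20 having any peak, of a list with a median length of 323 kb. The strongest were at Robo1, a receptor for Slit proteins (fold 4.36), Epha4, an ephrin receptor (4.28), Slit3, a Robo ligand (4.17), and Epha5 (3.94). None of the 14 was at a proximal promoter.

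Receptors for glutamate and GABA differed in length as well as in count. Ionotropic glutamate receptors had 9 of 18 genes (14 with any peak) with 32 rescue-only peaks and a median length of 298 kb, led by Grid1 (3.73), Grik4 (3.69), Grik2 (3.27) and Grin2a (3.16), and of these Grik4 and Grin2a had 8 peaks each. Metabotropic receptors, with a median of 396 kb, had 2 of 7 (5 with any peak), among them Grm8 (3.27). GABA receptors had 6 of 14 (12 with any peak) at a median of 120.3 kb, with Gabra2 and Gabrb1 at 3.44 and Gabra5 at 3.29.

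Ion channels set neuronal excitability. Potassium channels had 11 of 21 genes (18 with any peak), with Kcnma1, the large-conductance calcium-activated channel, at 4.35, Kcnn2 at 4.02, Kcnd2 at 3.94 and Kcnj3 at 3.77. Sodium and calcium channels had 7 of 19 (17 with any peak), with Cacna2d3 at 4.31, Cacna1e at 3.73, Scn8a at 3.09 and Cacna1c at 3.02. Median lengths were 222 kb for potassium channels and 170 kb for sodium and calcium channels.

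At the synapse, 10 of 25 genes of vesicle release (22 with any peak) had a rescue-only peak, with Syn3, a synapsin, at 3.98, Syt1, the calcium sensor of release, at 3.78, Sv2c at 3.605 and Syn1 at 3.44. Adhesion and scaffold genes had 9 of 22 (18 with any peak), with Nlgn1, a neuroligin, at 4.45, Dlg2 at 4.02 and Cntnap2 at 3.94. Median lengths were 94.4 kb for vesicle release and 501 kb for adhesion and scaffold genes.

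Among 20 immediate early genes, which neuronal activity switches on, Ier2 had one (2.87), and 15 had a proximal promoter peak in the Ts65Dn;Brwd1+/- list. These genes are short, with a median of 5.69 kb, and the share over all genes under 20 kb was 8.59%. Of 20 interneuron factors (median length 7.60 kb), 4 had any peak, and Cck had a rescue-only one (2.99). The 16 housekeeping genes had a median length of 8.05 kb. None of their promoters was rescue-only, and 15 of these genes had a promoter peak in the Ts65Dn;Brwd1+/- list. Glutamatergic identity factors had 5 of 26 (15 with any peak), with Nfib at 3.77, Zbtb20 at 3.35, Bcl11b at 2.86 and Tcf4 at 2.63. The median length of this list was 96.8 kb.

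Subunits of the BAF complex had 5 of 28 genes (24 with any peak) with a rescue-only peak, each in the gene body: Bcl7c (3.59), Arid1a (3.32), Dpf3 (3.23), Bcl11b and Arid1b (2.74). Chromatin enzymes had 8 of 28 (23 with any peak), with Kmt2c at 3.35, Hdac4 at 3.27, Hdac9 at 3.19 and Tet2 at 3.09. Median lengths were 31.2 kb for BAF subunits and 66.0 kb for chromatin enzymes. Counted by list, genes with a Ts65Dn-only peak were fewer than those with a rescue-only one for axon guidance (8), ionotropic (8) and GABA receptors (3), vesicle release (8), chromatin enzymes (3) and immediate early genes (0). They were as many for potassium channels (11) and BAF subunits (5), and more for metabotropic receptors (3), sodium and calcium channels (12), adhesion and scaffold genes (13), interneuron factors (3) and glutamatergic identity factors (10). Brwd1 and its relatives, the list of bromodomain proteins with WD repeats, had none among 3 genes, of which 2 had any peak.

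Chromosome by chromosome, the share of peaks that were rescue-only was between 18.6% (chromosome 19) and 25.8% (chromosome 16) on autosomes. On chromosome X it was 8.74% (36 of 412, interval 6.38 to 11.9%), whereas 20.9% of Ts65Dn peaks on X were Ts65Dn-only. For peaks shared with euploid, the log2 ratio of fold enrichment on X had a median of 0.21, against 0.06 over all pairs. For those shared with Ts65Dn it was -0.19 on X, against -0.23.

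In the triplicated segment (chr16:84717576-98082450 and chr17:1-8986648), 138 of 473 peaks were rescue-only (29.2%, interval 25.3 to 33.4%), and 21.1% of peaks on autosomes outside it. The parts on chromosomes 16 and 17 gave 29.6 and 28.5%, and the rest of chromosome 16 gave 24.4%. Ts65Dn-only peaks went the other way, with 54 of 390 in the segment (13.8%, interval 10.8 to 17.6%) and 17.9% on the other autosomes. Both trisomic genotypes carry the segment in extra copy, and the fold of shared peaks in it had a median log2 ratio of -0.24 against Ts65Dn, close to the -0.23 over all pairs. Against euploid it was -0.06 in the segment and 0.06 over all pairs. These are counts of 1 list each, without replicates.

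**Figure D3:**
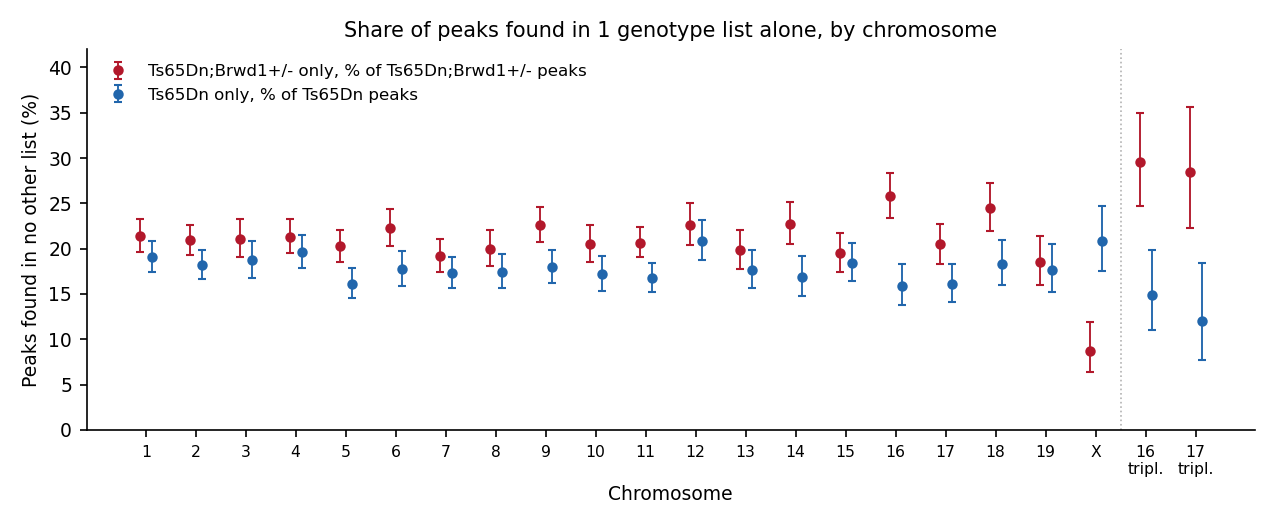
Percent of Ts65Dn;Brwd1+/- peaks that were rescue-only and of Ts65Dn peaks that were Ts65Dn-only, by chromosome and for the triplicated parts (tripl.) of chromosomes 16 and 17, with Wilson 95% intervals. The rescue-only share was 29.6 and 28.5% in the triplicated parts and 8.74% on chromosome X.

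The strongest rescue-only peak of the segment was the intergenic one on chromosome 16 shown above (fold 4.69), 108163 bp from the nearest Ts65Dn peak. Snx9, a sorting nexin, Dynlt1c, Dynlt1f and an intergenic site at chr17:7983912-7984176 had 4.28 each, and Dynlt1b had 4.11. The Dynlt1 genes are nearly identical dynein light chain copies, and although the authors kept reads with 1 mapped position, peaks at such copies are uncertain. Tagap1 had 4.02 at its promoter, Gm1604a 3.94, Gm26848 3.93 and an intergenic site at chr16:91995597-91995984 3.80.

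Of 40 triplicated genes with known roles (median length 43.3 kb), 15 had a rescue-only peak, 7 a Ts65Dn-only one and 35 any Ts65Dn;Brwd1+/- peak. The rescue-only ones were led by Synj1, a phosphatase of vesicle recycling (3.74), Bace2 (3.22), Dscam, an adhesion molecule (3.16), and Ttc3 (3.12). Promoter peaks in the segment included those of Ezr (3.12), which links actin to the membrane, Grik1 (2.78), a kainate receptor subunit, Chaf1b (2.53), a histone chaperone subunit, Dyrk1a (2.37), a kinase, Cbr1 (2.33) and Pde10a (2.17), a phosphodiesterase. The one at Dyrk1a was 517 bp wide and lay 205 bp from a Ts65Dn peak and 618 bp from a euploid peak, and that at Chaf1b lay 362 bp from a Ts65Dn peak. Those of Ezr and Grik1 lay 6654 and 45235 bp from one.

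SMARCA2/4 ChIP-seq did not enter the choice of peaks. Of the 6351 rescue-only peaks, 560 overlapped a euploid SMARCA2/4 peak (8.82%, interval 8.15 to 9.54%), 20 one of Ts65Dn (0.315%) and 23 one of Ts65Dn;Brwd1+/- (0.362%, interval 0.241 to 0.543%). The last share was 1.22% with lists of equal length and 0.0918% at or above the median fold. The ChIP-seq lists themselves held 22667, 1290 and 1873 peaks, so these shares cannot be compared between genotypes without their lengths. Within the same lists, peaks in all 3 ATAC-seq lists had 37.4, 2.27 and 3.24%, and Ts65Dn-only peaks had 12.1, 0.499 and 0.997%. In total 575 rescue-only peaks (9.05%) overlapped a SMARCA2/4 peak of any genotype.

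The lower overlap was seen in every region class. Euploid SMARCA2/4 peaks overlapped 15.2% of rescue-only peaks at proximal promoters, 19.2% out to 1 kb, 10.9% out to 3 kb, 7.81% in gene bodies and 5.11% between genes. For peaks in all 3 lists the shares were 38.9, 48.2, 42.6, 34.0 and 28.7%. At a fold from 3 to 3.5 they were 6.24% for rescue-only peaks, 18.3% for those shared with Ts65Dn and 37.5% for those in all lists. Width differed between these classes as well, with medians of 240, 281 and 381 bp, and its part in the overlap was not tested. Rescue-only peaks with a euploid SMARCA2/4 peak had a median fold of 2.88 and those without one 3.10.

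**Figure D4:**
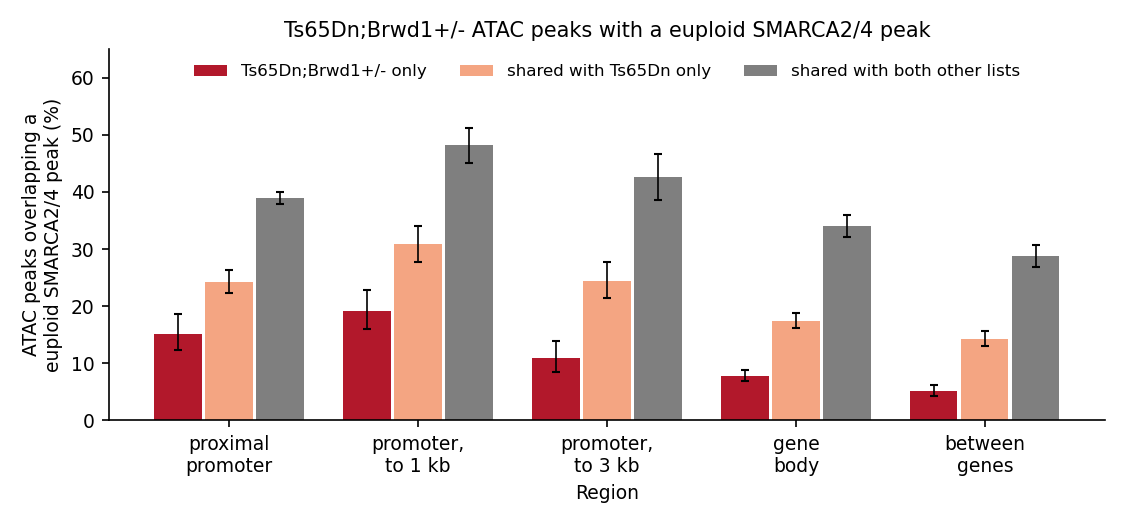
Percent of Ts65Dn;Brwd1+/- ATAC-seq peaks that overlapped a euploid SMARCA2/4 peak, by region and by class of ATAC-seq peak, with Wilson 95% intervals. Rescue-only peaks had the lowest share in each of the 5 regions, from 5.11% between genes to 19.2% out to 1 kb.

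Of the 23 rescue-only peaks with a SMARCA2/4 peak of the same genotype, 21 had no Ts65Dn SMARCA2/4 peak, 6 had one in neither other list and 2 had one in all 3. The strongest was the intergenic peak on chromosome 17 with 2 AP-1 matches (fold 3.82), followed by an intergenic peak at chr2:131422832-131423234 (3.55). Sort1, a sorting receptor for neurotrophins, had 3.43 at chr3:108295395-108295639, Ptprn2 had 3.43 in an intron, and the long noncoding RNA 1700086O06Rik also had 3.43. All of these had a euploid SMARCA2/4 peak as well.

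Lrrk2, a kinase gene mutated in Parkinson disease, had an intronic peak of 3.35 at chr15:91703245-91703444, and Ntrk3, the receptor for neurotrophin-3, one of 3.09 at chr7:78500928-78501157. In these the SMARCA2/4 peak was listed in Ts65Dn;Brwd1+/- and in neither other genotype. Dclk1, a microtubule-associated kinase, had 3.16 and a SMARCA2/4 peak in all 3 lists. An intergenic peak at chr4:32055270-32055579 had 3.01, and Mt3, the brain metallothionein, 2.99 within 1 kb of its start, both with a euploid SMARCA2/4 peak.

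In base composition, rescue-only peaks were poorer in G and C than peaks in all lists, with a median of 50.3 against 62.0% over windows of 300 bases, and poorer in CpG, with a ratio of observed to expected CpG of 0.245 against 0.721. Ts65Dn-only peaks had 51.3% and 0.297. The gap was smaller within a region. Within gene bodies the medians were 49.3% for rescue-only peaks and 51.3% for those in all lists, and at proximal promoters 60.8 and 67.3%. Repeats covered more than 50% of the window in 1.62% of rescue-only peaks.

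Motifs were counted in the same windows on both strands. The AP-1 motif TGANTCA, bound by Fos and Jun proteins, was found in 18.4% of rescue-only windows (1170 of 6347, interval 17.5 to 19.4%), against 12.8% of all Ts65Dn;Brwd1+/- peaks, 8.58% of those in all lists, 15.1% of those shared with Ts65Dn and 11.8% of Ts65Dn-only peaks. In gene bodies alone it was found in 20.99% of rescue-only peaks (interval 19.6 to 22.5%), 18.2% of those in all lists (16.7 to 19.8%) and 13.2% of Ts65Dn-only peaks (11.7 to 14.8%). Between genes the shares were 19.2, 18.6 and 14.9%, and at proximal promoters 6.40, 3.17 and 4.24%. Within a region, rescue-only peaks and those in all lists thus differed less than over all regions.

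The E-boxes CAGATG and CAGCTG, which proneural factors bind and the second of which can overlap an AP-1 match, were found in 41.9 and 25.3% of rescue-only windows and in 31.0 and 22.2% of all Ts65Dn;Brwd1+/- peaks. Ts65Dn-only peaks had 35.8 and 25.3%. In gene bodies alone, CAGATG was found in 47.3% of rescue-only peaks and 47.1% of those in all lists. Between genes the shares were 42.7 and 42.8%, and at proximal promoters 21.4 and 8.38%. The MEF2 motif CTANNNNTA was found in 22.1 against 16.97% of all peaks, and the NFI half-site TTGGCA in 24.2 against 19.9%. Within regions the NFI half-site went the other way away from promoters, with 26.4% of rescue-only peaks and 29.1% of those in all lists in gene bodies and 25.8 and 27.9% between genes, while at proximal promoters it had 13.6 and 8.44%. MEF2 had 23.3 and 22.01% in gene bodies. The GC box GGGCGG, typical of CpG-rich promoters, was found in 12.95% against 34.7%. The cAMP response element TGACGTCA had 0.678 against 1.59%, the CTCF core AGGGGGCGC 0.835 against 1.44%, and the RFX motif GTTGCCATG 1.70 against 1.72%. In gene bodies the RFX motif was found in 1.75% of rescue-only peaks (interval 1.34 to 2.29%) and 3.02% of those in all lists (2.40 to 3.79%), and between genes in 1.80% (1.28 to 2.53%) and 3.11% (2.44 to 3.95%). Such matches depend on base composition, which differed as given above, and describe letters, not binding.

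**Figure D5:**
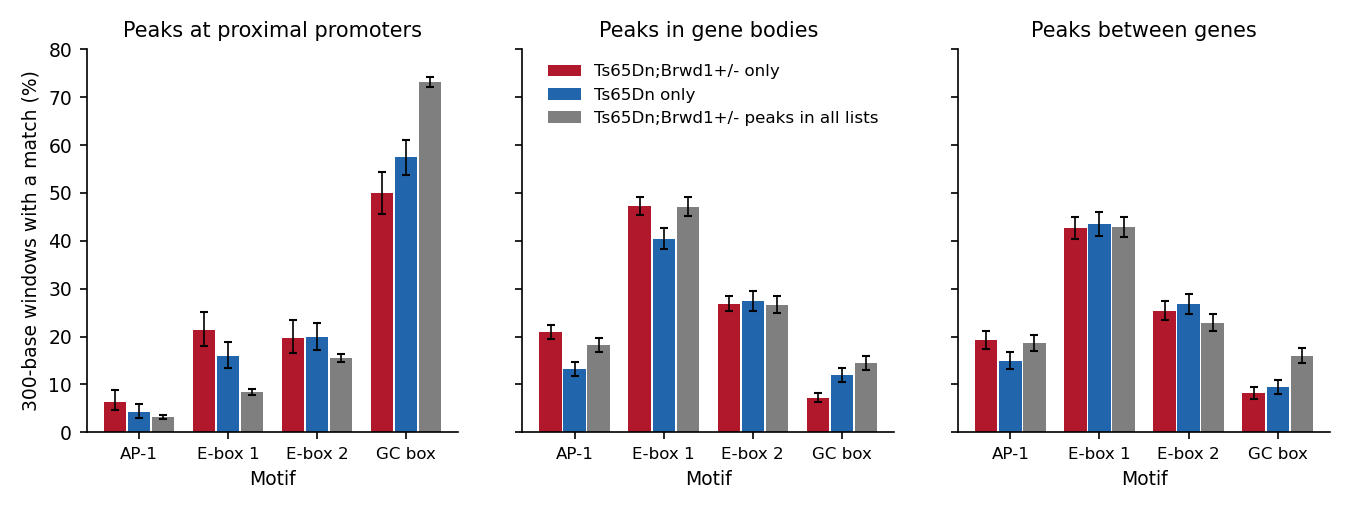
Percent of windows of 300 bases with a match to each motif, by class of ATAC-seq peak, at proximal promoters, in gene bodies and between genes, with Wilson 95% intervals. E-box 1 is CAGATG and E-box 2 is CAGCTG. In gene bodies AP-1 matched 20.99% of rescue-only windows, 13.2% of Ts65Dn-only ones and 18.2% of those in all 3 lists, and the GC box was most frequent at promoters of peaks in all lists.

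RNA of the neuronal cultures was set beside the promoter peaks as a separate readout, from another tissue and age. Brwd1 was 93.2, 85.9 and 89.2 CPM (counts relative to library size) in the euploid libraries, 129, 126 and 125 in Ts65Dn, and 145, 146 and 124 in those labelled Ts65Dn;Brwd1+/-. The last did not fall below Ts65Dn, with a log2 difference of 0.13 ± 0.08 (SE, edgeR adjusted p = 0.186). The count of the whole gene checks the label only as far as the repro5 allele lowers its RNA, which was not tested. The same 3 libraries had Xist at 1409 to 1982 CPM and Ddx3y at 0.0892 CPM or less, whereas the other 6 had Xist at 0.526 to 1.12 and Ddx3y at 46.2 to 58.7 CPM, although the labels give the same mixture of sexes for all. Directions below are therefore those of the libraries labelled Ts65Dn;Brwd1+/-, and the part of sex and of the label in them was not tested. In cultures, a smaller number of cells of a type and less RNA per cell cannot be told apart.

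Of the 491 genes with a rescue-only promoter peak, 405 passed the filter on low counts. Against Ts65Dn, 265 of them changed in the libraries labelled Ts65Dn;Brwd1+/- (65.4%, 130 up and 135 down), beside 58.1% of all 17173 genes tested. Against euploid, 122 changed (30.1%, 65 up and 57 down), beside 29.2% of all genes. Ts65Dn against euploid, in which the genotype of the peaks takes no part, gave 241 (59.5%, 124 up and 117 down), beside 46.7%. Counts up and down were nearly even over these genes, and the median log2 fold changes were -0.01, -0.02 and 0.07. Over the 259 tested genes with no promoter peak in the other lists, they were uneven in both comparisons that involve Ts65Dn, with 63 up and 103 down against Ts65Dn (median -0.13) and 99 up and 59 down in Ts65Dn against euploid (median 0.18). Against euploid they were 41 up and 42 down (median -0.02). Over all genes tested, the counts were 4747 up and 5233 down, 2400 and 2608, and 4390 and 3627. For the 612 tested genes with a Ts65Dn-only promoter peak, 70.4, 33.7 and 61.8% changed. The comparisons share their libraries in pairs. All calls were by edgeR's quasi-likelihood test at an adjusted p of 0.05.

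Markers of cell types, 8 genes each, moved between the same libraries. The summed level of the neuronal list was 3010 to 3822 CPM in euploid, 892 to 2097 CPM in Ts65Dn and 2818 to 3530 CPM in the libraries labelled Ts65Dn;Brwd1+/-, where 6 of its 8 genes rose against Ts65Dn and 0 fell. One Ts65Dn library stood apart, at 892 CPM where the other 2 had 1862 and 2097 CPM. Markers of glutamatergic neurons summed to 1040 to 1355, 312 to 723 and 970 to 1346 CPM, with 6 up and 0 down against Ts65Dn. Interneuron markers summed to 504 to 552, 114 to 206 and 804 to 873 CPM, with 7 up and 1 down against Ts65Dn. Neuronal markers were lowest in the Ts65Dn cultures also without that library, and interneuron markers were highest in those labelled Ts65Dn;Brwd1+/-.

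Without that Ts65Dn library, 250, 161 and 215 promoter genes changed in the comparisons in the order above (61.4, 39.6 and 52.8%, beside 51.6, 33.0 and 38.2% of all genes). With no promoter peak in the other lists, the genes up and down were then 61 and 94 against Ts65Dn and 84 and 57 in Ts65Dn against euploid.

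Astrocyte markers summed to 2766 to 3486 CPM in euploid, 3500 to 3973 CPM in Ts65Dn and 2900 to 3478 CPM in the libraries labelled Ts65Dn;Brwd1+/-, so glial RNA was abundant in every culture. The oligodendrocyte lineage gave 337 to 391, 577 to 681 and 800 to 965 CPM, with 4 genes up and 2 down against Ts65Dn. Its largest part was Olig1, a transcription factor whose gene lies in the triplicated segment as that of Olig2 does, and the other 7 genes gave 140 to 161, 167 to 193 and 304 to 369 CPM. Microglial markers gave 7.51 to 13.98, 4.00 to 5.88 and 1.12 to 1.78 CPM. Endothelial markers summed to 82.0 to 91.1 CPM in euploid, 654 to 861 CPM in Ts65Dn and 87.3 to 129.7 CPM in the libraries labelled Ts65Dn;Brwd1+/-, with 2 of 3 tested genes down against Ts65Dn and 0 up. Most of that sum was Kdr, a receptor for vascular endothelial growth factor. The other endothelial markers summed to 2.05 to 3.64 CPM over the 9 libraries, and Cldn5 was at 0 in all. The part of these shifts in cell markers in the RNA differences that follow was not tested.

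Genes with a rescue-only promoter peak spanned the range of expression. Their median over all 9 libraries was 20.8 CPM, against 19.2 CPM for all genes tested and 38.3 CPM for genes with a promoter peak in all 3 lists. The first and last of these medians were taken without the filter on low counts, and that of all genes tested with it. Genes with a rescue-only peak in the gene body had a median of 32.3 CPM, also without that filter. Of the 1754 tested, 1224 changed against Ts65Dn (69.8%, beside 58.1% of all genes), 700 up and 524 down. The part of expression level in these calls was not tested. In Ts65Dn against euploid, 1056 of the same genes changed (60.2%, beside 46.7%), 437 up and 619 down, and against euploid 556 changed in the libraries labelled Ts65Dn;Brwd1+/- (31.7%, beside 29.2%), 253 up and 303 down.

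Lypla1, with the strongest peak, was at 24.9, 17.8 and 19.4 CPM in euploid, 24.4, 26.7 and 28.7 CPM in Ts65Dn, and 13.5, 17.4 and 13.96 CPM in the libraries labelled Ts65Dn;Brwd1+/-. The last were the lowest 3 of the 9. The log2 fold change was -0.84 ± 0.14 (SE) against Ts65Dn (edgeR adjusted p = 6.57e-04) and -0.47 ± 0.14 against euploid (adjusted p = 0.0311). The call against euploid was lost without 1 euploid or either of 2 Ts65Dn;Brwd1+/- libraries, at adjusted p from 0.0924 to 0.106. Since Gm37988 overlaps Lypla1, how its reads were assigned is uncertain.

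Of the genes that rose most against Ts65Dn, Dcn, a proteoglycan of fibroblasts and meninges, was at 15.3, 11.6 and 9.61 CPM in euploid, 1.31, 0.889 and 1.63 CPM in Ts65Dn, and 29.4, 20.3 and 20.2 CPM in the libraries labelled Ts65Dn;Brwd1+/-. It was low in every Ts65Dn library, and its log2 fold change was 4.17 ± 0.26 (edgeR adjusted p = 1.65e-06). Stk32b, a kinase, rose by 2.82, Npy2r, a receptor for neuropeptide Y, by 2.45, Neto1, an auxiliary subunit of kainate receptors, by 2.27, and Trim67 by 2.11, all on the log2 scale. Ts65Dn was the lowest genotype for each of these 5.

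Of those that fell most, Ifi27 was at 53.1, 39.1 and 44.9 CPM in euploid, 120, 115 and 122 CPM in Ts65Dn, and 17.7, 17.8 and 16.9 CPM in the libraries labelled Ts65Dn;Brwd1+/-. The genotypes did not overlap, and the log2 fold change was -2.77 ± 0.11 against Ts65Dn (edgeR adjusted p = 1.19e-07) and -1.39 ± 0.10 against euploid (adjusted p = 1.81e-05). Cldn1, a tight junction protein, fell by 3.45, Dysf, a membrane repair protein, by 2.93 and Cd34, a surface protein of endothelial and blood progenitor cells, by 2.56 against Ts65Dn. Ctxn3 had 11 counts over the euploid libraries, 9 over those labelled Ts65Dn;Brwd1+/- and 171 in Ts65Dn.

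Against euploid, Trp53i11, a p53-induced gene, was at 30.2, 26.1 and 25.8 CPM in euploid, 19.3, 17.1 and 19.4 CPM in Ts65Dn, and 81.5, 76.1 and 81.2 CPM in the libraries labelled Ts65Dn;Brwd1+/-. It was higher there than in both other genotypes, by 1.54 ± 0.08 against euploid and 2.10 ± 0.09 against Ts65Dn (log2, edgeR adjusted p = 3.74e-06 and 1.60e-07). Chaf1b, in the segment, rose by 2.52, Stk32b by 1.71 and Ska1, a kinetochore gene, by 1.49. Gm5678 had 3 counts over the euploid libraries, 73 in Ts65Dn and 43 in the libraries labelled Ts65Dn;Brwd1+/-, a ratio of 14.4 to euploid per count in genes (exact 95% interval 4.59 to 72.3, which covers counting error and not the spread between libraries).

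Ddit4l, an inhibitor of mTOR signalling, was at 34.1, 32.8 and 39.9 CPM in euploid, 25.1, 28.1 and 29.3 CPM in Ts65Dn, and 6.51, 9.80 and 8.51 CPM in the libraries labelled Ts65Dn;Brwd1+/-. The last were the lowest, by 2.11 ± 0.14 against euploid and 1.74 ± 0.14 against Ts65Dn (log2, edgeR adjusted p = 1.02e-05 and 6.65e-06). Adgb fell by 1.84, Gcnt2 by 1.49, Cd34 by 1.45 and Cldn1 by 1.42 against euploid. These genes were named from both ends of the ranking, so both signs had to occur among them. Over all tested genes with a rescue-only promoter peak, 130 rose and 135 fell against Ts65Dn, and 65 rose and 57 fell against euploid.

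Among synaptic genes with a rescue-only promoter peak, Nrxn3, a neurexin, was at 143 to 154 CPM in euploid, 71.3 to 91.3 CPM in Ts65Dn and 185 to 194 CPM in the libraries labelled Ts65Dn;Brwd1+/- (log2 1.17 ± 0.10 against Ts65Dn, edgeR adjusted p = 6.49e-06). Syn3 rose against Ts65Dn by 1.28, Shank3 by 0.97 and Vamp2 by 0.64. Against euploid, whose list also lacks these peaks, Nrxn3 rose by 0.33 (edgeR adjusted p = 0.0259). In the same comparison Syn3 differed by 0.28, Shank3 by -0.01 and Vamp2 by -0.01 (edgeR adjusted p from 0.292 to 0.986). Cacna1c and Cck did not pass the test against Ts65Dn, at 0.07 and 0.38 (edgeR adjusted p = 0.616 and 0.475). In all, 15 genes of the gene lists with a rescue-only promoter peak were tested. Against Ts65Dn 9 of them changed (8 up and 1 down), beside 58.1% of all genes tested. Against euploid 6 changed (5 up and 1 down), beside 29.2%. Ts65Dn against euploid gave 12 (4 up and 8 down), beside 46.7%. Gabrb1, at 278 to 322 CPM in euploid, was at 162 to 201 CPM in Ts65Dn and 173 to 200 CPM in the libraries labelled Ts65Dn;Brwd1+/-, and fell by 0.68 ± 0.10 against euploid (edgeR adjusted p = 9.48e-04).

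Dyrk1a, in the triplicated segment, was at 91.2 to 92.2 CPM in euploid, 131 to 132 CPM in Ts65Dn and 142 to 144 CPM in the libraries labelled Ts65Dn;Brwd1+/- (0.64 ± 0.06 against euploid, edgeR adjusted p = 4.68e-05). Chaf1b rose against Ts65Dn by 1.05, Grik1 by 1.87 and Pde10a by 1.27, and Ezr fell by 1.12. Both signs thus occurred among the promoter peaks of the segment as well.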

How the data were processed

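The authors aligned reads to mm10 with HISAT2, kept uniquely mapped reads without duplicates for ATAC-seq and ChIP-seq, and called peaks with MACS, with a shift of 100 and an extension of 200 bp for ATAC-seq and against input for ChIP-seq. They deposited 1 peak list per genotype and assay with a linear fold enrichment and a q-value per peak, annotated by region. The stated fold minimum was 1.2. How replicates were merged is not given in the sources used here. For culture RNA the authors deposited raw counts per gene and library, and whether strand was used is not stated.

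Rescue-only peaks were found by an overlap of 1 bp. The members, gene lists and motifs were chosen with earlier results of these data known. Named were the 10 strongest peaks, the 10 genes with the most, up to 10 in the triplicated segment and 10 with a SMARCA2/4 peak of Ts65Dn;Brwd1+/-, up to 4 genes a list, the 5 promoter genes that rose and the 5 that fell most per RNA comparison, and the 3 widest peaks. Promoter genes of the segment and of the lists, and the next strongest promoter peaks, were named beyond that after their values were seen. Gene identifiers matched GENCODE for 99.8%.

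The 9 culture libraries, with 17270070 to 25892802 counts in genes and 37.5 to 40.0% of counts in lines that name no gene, which were left out, were fitted together in edgeR 4.0.16 (R 4.3.3) with filterByExpr, TMM scaling, genotype as the only factor and Benjamini-Hochberg adjustment at 0.05. The labels do not say whether replicates were separate cultures, so p-values measure the spread between these samples. On simulated counts for Ts65Dn;Brwd1+/- against Ts65Dn over 16942 genes, 93.0% of 100 genes changed by 1 on the log2 scale and 99.0% of 100 changed by 2 were recovered. Background reads were taken from the step between fold values, on which 17.6, 20.2 and 17.1% of Ts65Dn;Brwd1+/-, Ts65Dn and euploid peaks fell within 0.003 of a whole read. Shares have Wilson 95% intervals. Alternatives were other overlaps, stricter lists, lists of equal length, DESeq2 1.42.0, other gene sets and each library left out. Depth per ATAC-seq and ChIP-seq library is unknown. Values of some genes are not reported here.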

Additional observations from a re-analysis of the deposited data

How the results depend on the processing

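The number of rescue-only peaks, 6351 as reported, was 1089 when only peaks at or above the median fold of the Ts65Dn;Brwd1+/- list were used, 1886 with lists of equal length and 1516 with q under 1e-10, an alternative chosen after seeing the data, as were the restrictions to assembled chromosomes and to 6 RNA libraries. A q under 0.001 removed no peak of that list, whose largest q was 9.77e-04, so it tested nothing. The share at proximal promoters, 7.87%, was 9.34% when 50% cover was needed to count as shared, 6.29% when a peak within 1 kb counted as shared, 6.15% at or above the median fold and 13.3% with lists of equal length. The share with a SMARCA2/4 peak of Ts65Dn;Brwd1+/-, 0.362%, was 0.0918, 1.22 and 0.660% at or above the median fold, with equal lists and with q under 1e-10, 1.17% when a SMARCA2/4 peak within 1 kb counted and 0.173% with SMARCA2/4 q under 0.05. Fewer or other peaks enter under these settings; beyond that, the cause was not tested.

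For promoter genes called in culture RNA, taking promoters and gene bodies gave 1433, 654 and 1244 (Ts65Dn;Brwd1+/- against Ts65Dn, against euploid, and Ts65Dn against euploid), where 265, 122 and 241 were reported, since more genes entered. Of the 2080 genes then tested, these were 68.9, 31.4 and 59.8%. The reported shares were 65.4, 30.1 and 59.5%, beside 58.1, 29.2 and 46.7% of all genes. Leaving out genes with another promoter peak gave 166 and 158 of 259 tested in the first and last, with the uneven directions given above. Leaving out 1 library at a time gave 228 to 268, 97 to 161 and 197 to 236. DESeq2 gave 263, 129 and 235, and the 6 euploid and Ts65Dn libraries alone gave 221 in the last. With the replicate number as a block the counts were 277, 143 and 261. Deviations of same-numbered libraries correlated from -0.16 to 0.28, over 0.1 in 6 of 9 pairs against 4 of 18 pairs with other numbers. Since not every such pair was over 0.1, the numbers were not taken to pair the libraries. In all, 58 of the alternatives to these counts and shares kept counts within 1.5 times, or shares within the Wilson interval of the reported share, 3 of them by construction with that q, and 17 did not. Of the values for named genes under the alternatives, 491 kept direction and call, and 3, all for Lypla1 against euploid, lost the call without 1 library. Without replicates of the peak lists and without their depth, a peak absent from a list cannot be called closed chromatin.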
